A study of Homo sapiens with 6 samples.

Results

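The kinesin genes of MKN28, an established human gastric cancer cell line, were compared between cells with LTBP1 knocked down and control cells. Members were taken by gene symbol: KIF, a number and an optional letter from A to C, together with KIFC1, KIFC2 and KIFC3. This gave 42 genes of the 19960 in the deposited table, and 36 of them reached the mean of 10 normalized counts needed for testing. The shLTBP1 cells stably expressed a plasmid with a short hairpin RNA against LTBP1 (latent TGF-beta binding protein 1, a matrix protein), and the shSCR cells a plasmid with a scrambled control hairpin. Each group had 3 RNA-seq libraries from total RNA. The labels do not say whether a line was a clone or a pool, or whether libraries of one kind were grown as separate cultures. The p-values therefore rest on library-to-library spread alone, possibly technical.

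Kinesins are motor proteins that use ATP to walk along microtubules or to take them apart. Transport kinesins carry vesicles, mitochondria and endosomes, most of them toward the plus ends of microtubules at the cell edge. Mitotic kinesins build the spindle, move chromosomes and complete cytokinesis, and their messenger RNAs are made mainly in G2 and M phase of the cell cycle. A further group regulates microtubule length or works in the cilium and in Hedgehog signalling. The members were assigned to 15 transport, 14 mitotic and 13 other kinesins from general knowledge of their roles.

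The knockdown was visible in every library. LTBP1 had 59.0, 66.7 and 49.0 normalized counts in shLTBP1, against 977, 964 and 1011 in shSCR, with a log2 fold change of -4.07 (standard error 0.12, limma adjusted p = 1.18e-08, exact two-sided permutation p = 0.1, the smallest that 3 against 3 values allow). LTBP1 lies on chromosome 2, and the tested genes around it were lower too, with a median log2 fold change of -0.58. With that median subtracted, LTBP1 was at -3.48 (limma adjusted p = 2.08e-08). Summed normalized counts were 30479879 to 30601022 per shLTBP1 library and 30831251 to 30941103 per shSCR library, totals that no longer show the sequenced depth. All 6 epithelial markers were expressed. Of 9 neuron markers, 1 reached a mean of 10, which was MAP2, and ELAVL4, NEFM and INA were listed at 0 in every library. Of 7 fibroblast markers, COL1A1 and LUM reached that mean, with LUM listed at 0 in every shSCR library and at 41.5, 52.0 and 36.6 in shLTBP1. The 6 blood cell markers summed to 12.1 to 20.3 in shLTBP1 and to 8.10 to 941 in shSCR, the highest value coming from 1 library, shSCR replicate 3, which held the globin genes HBA1 and HBB at 803 and 132. The part of these levels in the kinesin results was not tested, and kinesin counts without that library are given below.

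**Figure D1:**
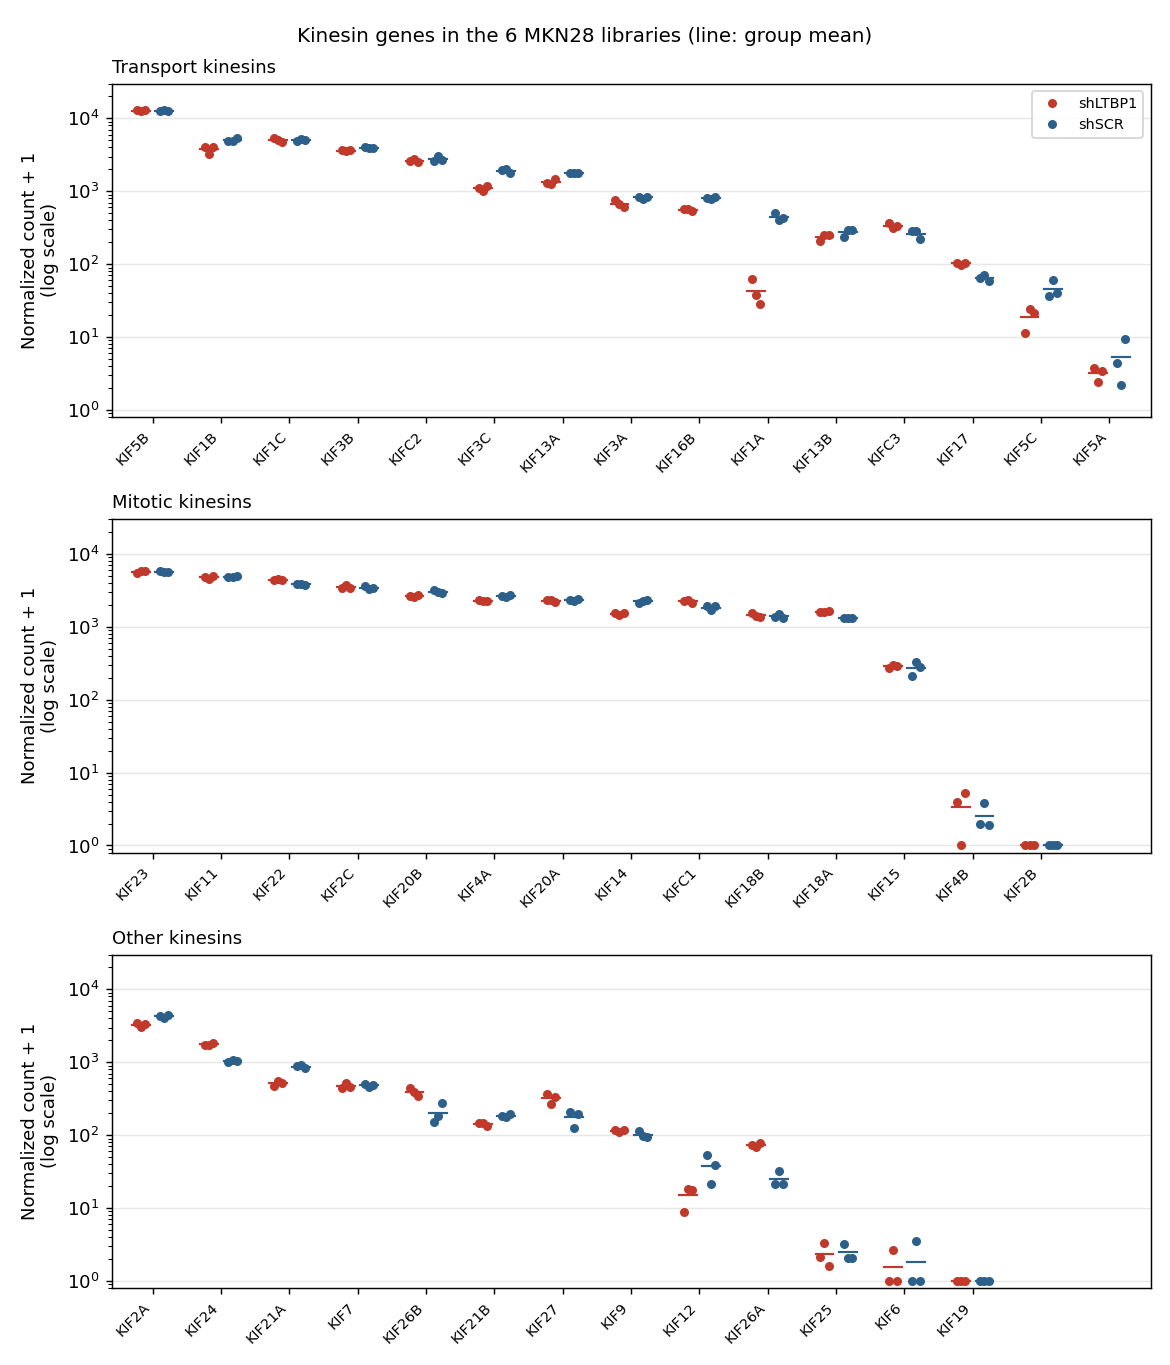
Normalized counts plus 1, on a log scale, of all 42 kinesin genes in each of the 6 libraries, with shLTBP1 left of shSCR for each gene, 1 point per library and a line at the group mean. KIF1A lies at 27.7 to 61.0 in shLTBP1 and 407 to 496 in shSCR, and KIF26A is higher in shLTBP1. Of the 12 mitotic kinesins tested, 6 have groups that do not overlap (50%, against 60.8% of all tested genes).

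As a family, the kinesins moved in both directions, and the classes differed in their counts. Of the 36 tested members, 24 passed the threshold (limma adjusted p under 0.05), with 9 higher in shLTBP1 and 15 lower (66.7%; the share over all 12789 tested genes was 53.1%, with 26.3% higher and 26.8% lower). Among transport kinesins, 8 of 14 fell and 2 rose, and the median log2 fold change was -0.25. Among mitotic kinesins, 3 of 12 fell and 3 rose, with a median of 0.015, against 0.0038 over all tested genes. Among the other kinesins, 4 of 10 fell and 4 rose, with a median of 0.066. At least 2-fold changes among the calls were those of KIF1A, KIF5C, KIF12 and KIF26A, 4 of the 36 tested members. Over all tested genes, 1141 of 12789 (8.92%) passed with a change of at least that size. The values of the groups did not overlap for 10 transport, 6 mitotic and 8 other kinesins, 24 in all (66.7%, against 60.8% of all tested genes). Without shSCR replicate 3, 19 of the 36 passed. Calls over the whole table fell as well whenever a library was left out, to between 5822 and 6534 genes, from 6788 with all libraries. The lower kinesin count is therefore not specific to the kinesins. Whether the classes differed from each other was not tested, because genes of a class are not replicates. In bulk RNA, fewer cells that express a gene and less of its RNA per cell cannot be told apart.

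The summed level of each class was compared per library after dividing each gene by the length of its longest protein-coding transcript. Transport kinesins summed to 5369.5, 5172 and 5277 normalized counts per kb in shLTBP1 and to 5714, 5906 and 5742 in shSCR, so that all 3 shLTBP1 sums lay below all 3 shSCR sums. Mitotic kinesins summed to 8968, 9094 and 8964 per kb in shLTBP1 and to 8892, 8648 and 8801 in shSCR, slightly higher in every shLTBP1 library. Without division by length the mitotic sums overlapped, at 32638, 32739 and 32775 normalized counts in shLTBP1 and 33218, 32470.1 and 32972 in shSCR. The mitotic class made up 56.7% ± 0.790 of the family sum per kb in shLTBP1 and 53.6% ± 0.483 in shSCR (SD, n = 3 each). These sums weight each gene by its level, and no test was made of them.

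Levels spanned a wide range. KIF5B, the ubiquitous heavy chain of kinesin-1, stood highest per length, at a mean of 2177 normalized counts per kb in shLTBP1 and 2179.7 in shSCR, and all libraries between 2134 and 2215. It made up 13.7% ± 0.170 of the family sum per kb in shLTBP1 and 13.3% ± 0.258 in shSCR (SD, n = 3 each). Next came KIF22, a chromosome-binding mitotic motor, and KIF23, with means over all libraries of 1650.1 and 1529 per kb. Their ranges, 1502 to 1811 and 1492 to 1555, overlapped. KIF2A, a microtubule depolymerase, was the highest of the other kinesins, at 981 ± 67.0 per kb in shLTBP1 and 1275 ± 57.0 in shSCR. The lowest of the tested members was KIF5C, at 2.62 ± 0.987 per kb in shLTBP1 and 6.54 ± 1.92 in shSCR.

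**Figure D2:**
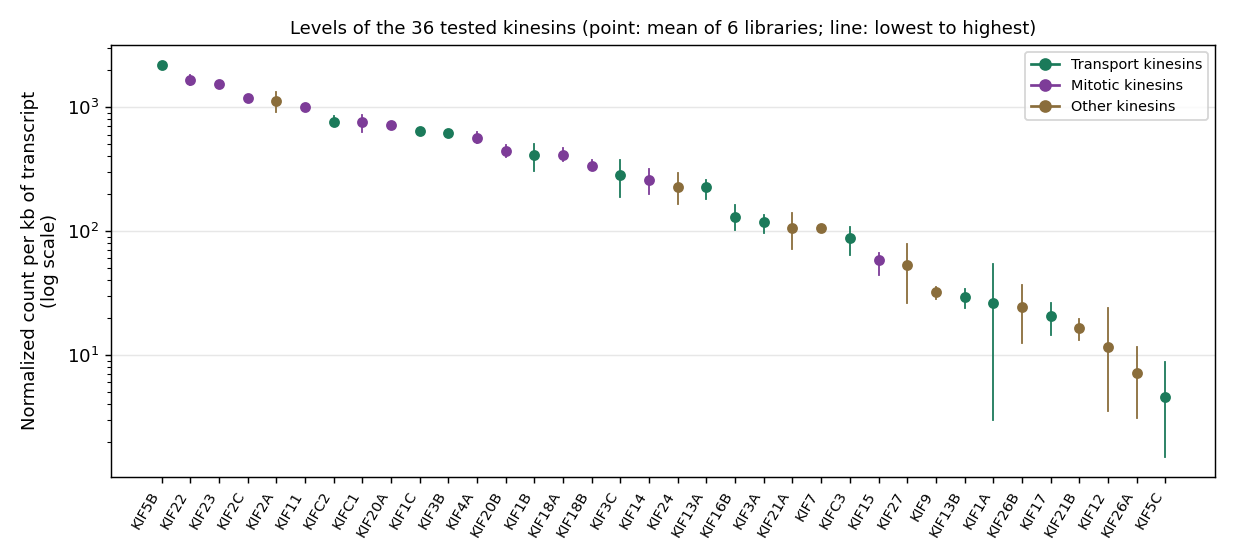
Levels of the 36 tested kinesins as normalized counts per kb of transcript on a log scale, ordered by the mean over all 6 libraries (points), with a line from the lowest to the highest library and colours for the 3 classes. KIF5B is highest at 2178 per kb, and 6 of the next 8 levels belong to mitotic kinesins. KIF1A has a long line, with group means of 4.55 per kb in shLTBP1 and 48.0 in shSCR.

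Of the 6 members below the expression filter, KIF2B, a testis depolymerase, and KIF19, a depolymerase of motile cilia in mouse, were listed at 0 in all libraries. KIF5A, the neuronal heavy chain of kinesin-1, averaged 2.21 ± 0.736 normalized counts in shLTBP1 and 4.33 ± 3.66 in shSCR (SD, n = 3 each). KIF25 ranged from 0.589 to 2.34, KIF4B from 0 to 4.24 and KIF6 from 0 to 2.51. KIF4B is a near-identical copy of KIF4A, so the division of reads between the pair is uncertain. Exons of 8 members overlap exons of another gene in the table (KIF2A with IPO11 on the same strand, and KIF18A, KIF20A, KIF24, KIF4A, KIF7, KIF9 and KIFC2 on the opposite strand), and the strand setting of the counting is not given in the sources used here.

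KIF1A had the largest change of the family. In neurons this kinesin-3 motor carries synaptic vesicle precursors and dense-core vesicles along axons. KIF1A (ENSG00000130294, minus strand of chromosome 2 from 240713761 to 240821036 in hg38) had 61.0, 37.2 and 27.7 normalized counts in shLTBP1, against 496, 407 and 425 in shSCR. The groups lay far apart, and the shLTBP1 mean of 41.9 ± 17.1 was 9.47% of the shSCR mean of 443 ± 46.8 (SD, n = 3 each). The log2 fold change was -3.44 (standard error 0.24, limma adjusted p = 2.36e-06, exact two-sided permutation p = 0.1), on the log2(value + 1) scale used throughout. Tested genes of chromosome 2 were lower as a whole (median log2 fold change -0.56 over 852 genes). With the median of the 25 tested neighbours on each side subtracted, KIF1A was at -2.93 (limma adjusted p = 1.02e-05).

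The neuron markers summed to 556 to 725 normalized counts in shLTBP1 and 559 to 699 in shSCR, almost all of it MAP2 (log2 fold change -0.021, limma adjusted p = 0.895). MAP2 lies on chromosome 2 as well, and with its neighbours subtracted it was at 0.64, higher in shLTBP1 (limma adjusted p = 0.00131). Of 11 genes of secretory vesicles and their fusion, the vesicles being cargo of KIF1A in neurons, 4 were expressed enough to test. Past the threshold were 3 of these (75%, against 53.1% of all tested genes), and RAB3A did not pass (log2 fold change -0.067, limma adjusted p = 0.721). SNAP25, a membrane fusion protein, rose by 1.57 on the log2 scale and SYT1, a calcium sensor for release, fell by 0.65. VAMP2 rose by 0.19, a call that was lost with some single libraries left out (limma adjusted p = 0.0397, up to 0.127). The granins CHGA and SCG3 were listed at 0 in all libraries.

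The other kinesin-3 transport motors changed less. KIF1B, which carries mitochondria and synaptic vesicle precursors, fell to 4031, 3272 and 4001 normalized counts in shLTBP1, against 4914, 4843 and 5355 in shSCR, a log2 fold change of -0.42 (standard error 0.08, limma adjusted p = 0.00163). All 3 shLTBP1 values lay below the shSCR values. KIF16B, a motor of early endosomes, had 567, 579.5 and 532 normalized counts in shLTBP1 and 799.9, 792 and 846 in shSCR, and fell by 0.54 on the log2 scale (limma adjusted p = 0.000124). KIF13A, a motor of endosomes and of vesicles from the trans-Golgi network, fell by 0.43 on the log2 scale. Its paralogue KIF13B did not pass (-0.22, limma adjusted p = 0.162), nor did KIF1C (0.0094, limma adjusted p = 0.895), whose groups overlapped at 4787 to 5404 normalized counts in shLTBP1 and 4904 to 5167 in shSCR.

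In kinesin-2, which drives transport toward the cilium tip and of other vesicles, KIF3A pairs with KIF3B, or in neurons with KIF3C. KIF3C had 1095.5, 1012 and 1186 normalized counts in shLTBP1, against 1951, 2003 and 1760.5 in shSCR. It fell by 0.80 on the log2 scale, to 57.6% of the shSCR mean (limma adjusted p = 1.62e-05). KIF3C lies on chromosome 2, and after subtraction of its neighbours' median it was at -0.18 and did not pass (limma adjusted p = 0.0679). KIF3A and KIF3B fell slightly, with log2 fold changes of -0.28 and -0.14. KIF3A lost its call without shSCR replicate 1 or 3 or shLTBP1 replicate 3 (limma adjusted p = 0.0742 to 0.0772), and without the mean trend (0.0513). KIF3B lost its call without any 1 shSCR library (limma adjusted p = 0.0531 to 0.0826), and with quantile normalization, where it was at -0.080 (limma adjusted p = 0.136). KIF17, a motor of dendrites and cilia that works as a homodimer, rose to 104, 97.4 and 103 normalized counts in shLTBP1, against 62.8, 69.8 and 57.0 in shSCR (log2 fold change 0.68, limma adjusted p = 0.00428).

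In kinesin-1, KIF5B did not pass (log2 fold change -0.0016, standard error 0.04, limma adjusted p = 0.975), with 12935, 12539 and 12913 normalized counts in shLTBP1 and 12666, 13015 and 12749 in shSCR. The neuronal KIF5C had 10.4, 23.3 and 20.7 normalized counts in shLTBP1 and 35.8, 60.5 and 39.6 in shSCR. Its log2 fold change was -1.31 (standard error 0.35, limma adjusted p = 0.0107). It too lies on chromosome 2, and with its neighbours subtracted it was at -0.67 and did not pass (limma adjusted p = 0.143). Of the motors that walk toward minus ends, KIFC3, found at adherens junctions of epithelial cells, rose by 0.38 (limma adjusted p = 0.0223, lost without shSCR replicate 3 or shLTBP1 replicate 1 at 0.0768 and 0.0802, and with neighbours subtracted at 0.0596). KIFC2 did not pass, at -0.06.

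**Figure D3:**
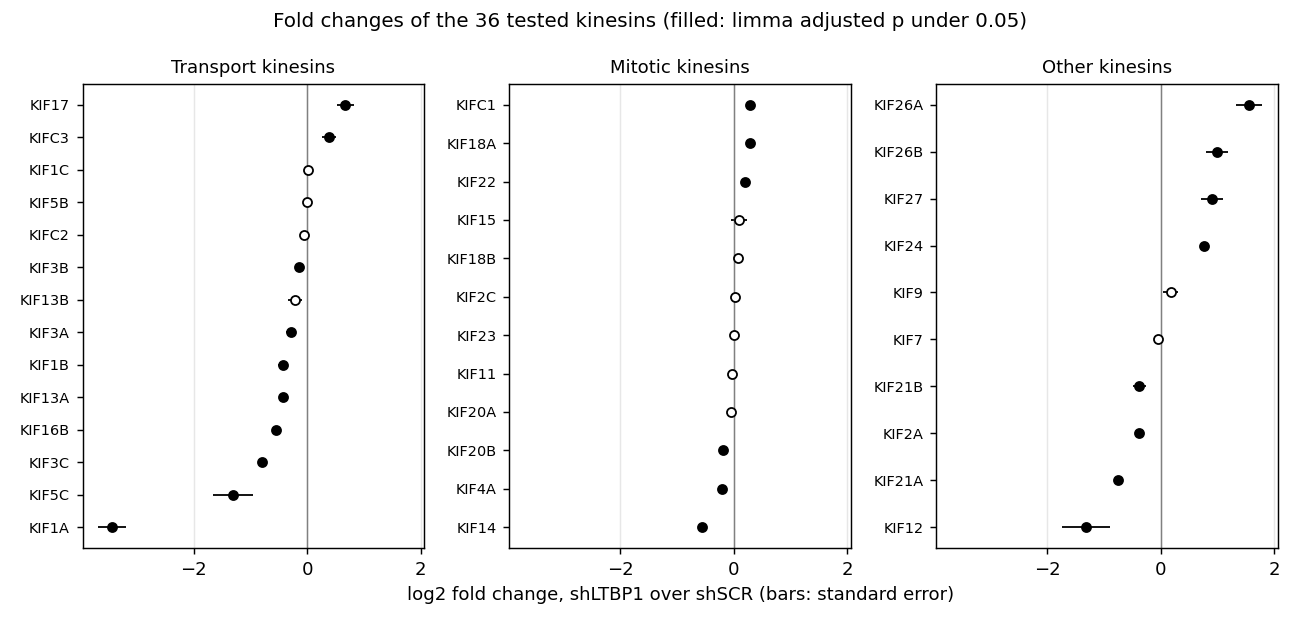
Log2 fold changes of shLTBP1 over shSCR for the 36 tested kinesins, in 3 panels by class, with bars for the standard error and filled points for a limma adjusted p under 0.05. Transport kinesins run from -3.44 (KIF1A) to 0.68 (KIF17), mitotic kinesins from -0.56 (KIF14) to 0.29 (KIFC1), and other kinesins from -1.32 (KIF12) to 1.56 (KIF26A).

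Mitotic kinesins stayed within a narrow span of log2 fold changes, from -0.56 to 0.29. KIF14, which works in cytokinesis with PRC1 and citron kinase, had the largest change, with 1545, 1435 and 1561 normalized counts in shLTBP1 and 2152, 2236 and 2308 in shSCR. It fell to 67.8% of the shSCR mean (log2 fold change -0.56, standard error 0.06, limma adjusted p = 2.46e-05), and its groups did not overlap. KIF4A, a chromosome-bound motor that shapes the central spindle, and KIF20B, a motor of cytokinesis, fell, with log2 fold changes of -0.20 and -0.19 (limma adjusted p = 0.00646 and 0.0146). The KIF20B call was lost without shSCR replicate 1 (limma adjusted p = 0.069), and that of KIF4A after neighbour subtraction (-0.048, limma adjusted p = 0.485).

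The mitotic kinesins that rose were KIFC1, KIF18A and KIF22. KIFC1, which gathers spindle poles and extra centrosomes, had 2234, 2351 and 2150.3 normalized counts in shLTBP1 and 1913, 1694 and 1909.96 in shSCR (log2 fold change 0.29, limma adjusted p = 0.00394). KIF18A, which damps chromosome movements at alignment, had 1596, 1577 and 1653 normalized counts in shLTBP1 and 1324, 1311 and 1318 in shSCR, also 0.29 (limma adjusted p = 0.00112). In both, every shLTBP1 value lay above every shSCR value. KIF22, the highest mitotic kinesin per length, rose by 0.20, and was at 0.079 and did not pass with its neighbours subtracted (limma adjusted p = 0.171).

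The remaining 6 mitotic kinesins tested did not pass, and their groups overlapped. KIF11, the plus-end motor that pushes spindle poles apart, averaged 4769 ± 261 normalized counts in shLTBP1 and 4876 ± 55.0 in shSCR. KIF23, the motor subunit of centralspindlin, averaged 5703 ± 128 in shLTBP1 and 5683 ± 58.7 in shSCR. KIF20A, which brings the chromosomal passenger complex to the midzone, KIF2C, a centromere depolymerase, KIF18B, which shortens astral microtubules, and KIF15, which can stand in for KIF11, had log2 fold changes of -0.045, 0.024, 0.071 and 0.088. Their limma adjusted p ran from 0.418 to 0.722, and that of KIF11 and KIF23 was 0.601 and 0.928.

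Promoters of the mitotic kinesins shared sequence elements known from genes of G2 and M phase. The cell cycle homology element reads TTTGAA or TTTAAA and is bound by complexes that repress such genes outside these phases, and the CCAAT box is bound by NF-Y. Both strands were searched in RefSeq windows on GRCh38.p14 that run from 250 bases before to 50 bases after a gene's start, for 34 of the 42 kinesins. TTTGAA was found in 10 of 14 mitotic kinesins (71.4%), in 1 of 11 transport kinesins (KIF5B) and in 0 of 9 other kinesins, against 14.0% of 10162 tested genes with a window. CCAAT was found in 11 of the mitotic kinesins (78.6%), 4 of the transport and 3 of the other kinesins, against 43.4% of tested genes. Both stood together in 9 mitotic kinesins (64.3%), 1 transport kinesin (KIF5B, 9.09%) and 0 other kinesins, against 5.87% of tested genes. TTTAAA was found in 4 mitotic kinesins, 1 transport kinesin and no other kinesin, against 10.9% of tested genes. No hits of different motifs overlapped. The distance from the first base of the nearest CCAAT before it to that of TTTGAA varied between the 9 mitotic kinesins with both. It was 25 bases in KIF11, 24 in KIF4A and in its copy KIF4B, 23 in KIF14, 35 in KIF18A, 34 in KIF18B, 50 in KIFC1, 9 in KIF23, and 122 and 128 for the pair of TTTGAA matches in KIF20B. A match is a description of letters, not a shown binding site.

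The first set below shows the shared letters in 8 mitotic kinesins, which include members that did not pass (KIF11, KIF23, KIF15, KIF20A), that rose (KIFC1, KIF18A) and that fell (KIF14, KIF4A). The genes shown here and in the second set were chosen after their values and windows were seen, so the motifs in the printed stretches are examples, and the counts above are those over all members with a window. Of the mitotic members not printed, KIF2B has none of the motifs, KIF22 has no TTTGAA or TTTAAA, and KIF2C has TTTAAA but no CCAAT. Each runs 5′ to 3′ from 100 bases before to 20 after the start, and capitals mark the motifs. On the opposite strand TTTGAA is printed as TTCAAA and a CCAAT box as ATTGG, while TTTAAA reads the same on both strands.
KIF11 promoter, GRCh38.p14 chr10:92593030-92593149, plus strand: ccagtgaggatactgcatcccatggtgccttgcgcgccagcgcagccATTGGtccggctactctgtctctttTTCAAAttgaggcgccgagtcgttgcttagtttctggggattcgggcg
KIF18A promoter, GRCh38.p14 chr11:28108137-28108256, minus strand: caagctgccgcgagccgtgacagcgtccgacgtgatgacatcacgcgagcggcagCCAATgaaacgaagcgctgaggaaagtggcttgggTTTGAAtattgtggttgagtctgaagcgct
KIF4A promoter, GRCh38.p14 chrX:70290004-70290123, plus strand: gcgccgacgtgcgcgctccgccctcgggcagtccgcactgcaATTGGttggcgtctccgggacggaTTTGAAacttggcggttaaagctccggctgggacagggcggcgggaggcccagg
KIF23 promoter, GRCh38.p14 chr15:69414249-69414368, plus strand: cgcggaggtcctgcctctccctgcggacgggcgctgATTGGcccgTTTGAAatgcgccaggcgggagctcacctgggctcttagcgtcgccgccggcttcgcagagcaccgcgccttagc
KIFC1 promoter, GRCh38.p14 chr6:33391723-33391842, plus strand: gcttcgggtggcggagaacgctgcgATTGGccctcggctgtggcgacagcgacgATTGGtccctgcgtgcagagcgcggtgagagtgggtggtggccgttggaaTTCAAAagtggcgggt
KIF15 promoter, GRCh38.p14 chr3:44761694-44761813, plus strand: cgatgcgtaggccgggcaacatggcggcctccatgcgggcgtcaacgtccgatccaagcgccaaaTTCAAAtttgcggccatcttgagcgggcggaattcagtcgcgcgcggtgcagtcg
KIF14 promoter, GRCh38.p14 chr1:200620732-200620851, minus strand: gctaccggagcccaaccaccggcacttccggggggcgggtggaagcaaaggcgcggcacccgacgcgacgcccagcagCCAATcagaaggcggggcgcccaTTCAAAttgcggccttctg
KIF20A promoter, GRCh38.p14 chr5:138179012-138179131, plus strand: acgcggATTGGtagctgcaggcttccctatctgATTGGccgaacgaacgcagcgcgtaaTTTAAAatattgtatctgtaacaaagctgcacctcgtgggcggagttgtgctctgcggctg
The second set shows non-mitotic kinesins that fell (KIF1A, KIF3C) or rose (KIF26A), and the member highest per length (KIF5B). KIF26A took the place of KIF24, whose RefSeq window lies far from its GENCODE gene start and holds 3 CCAAT boxes, at -154, -100 and -47, but neither TTTGAA nor TTTAAA. Where a gene has several windows, the one nearest to its gene start in GENCODE 29 was taken.
KIF1A promoter, GRCh38.p14 chr2:240821020-240821139, minus strand: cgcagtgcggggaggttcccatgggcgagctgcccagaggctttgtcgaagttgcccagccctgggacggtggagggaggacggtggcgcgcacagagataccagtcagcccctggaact
KIF3C promoter, GRCh38.p14 chr2:25982478-25982597, minus strand: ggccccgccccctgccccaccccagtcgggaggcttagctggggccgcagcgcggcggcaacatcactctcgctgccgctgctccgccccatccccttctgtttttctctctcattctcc
KIF26A promoter, GRCh38.p14 chr14:104138487-104138606, plus strand: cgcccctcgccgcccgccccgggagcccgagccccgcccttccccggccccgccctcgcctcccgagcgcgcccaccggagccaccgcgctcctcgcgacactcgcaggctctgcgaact
KIF5B promoter, GRCh38.p14 chr10:32056406-32056525, minus strand: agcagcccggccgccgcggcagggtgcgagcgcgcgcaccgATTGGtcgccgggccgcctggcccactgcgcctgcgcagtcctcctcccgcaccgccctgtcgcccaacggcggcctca
The TTTGAA match of KIF5B lies at -140, outside its printed stretch.

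Mitotic genes that work with these motors passed at a share near that of all genes. Of 23 partners tested, 6 rose and 8 fell (60.9%, against 53.1% of all tested genes, median -0.039 on the log2 scale). CENPE, the centromere kinesin whose symbol lies outside the rule, fell by 0.31 on the log2 scale and the kinase AURKA fell by 0.33. CDK1 rose by 0.39, and ECT2, which acts with KIF23 and RACGAP1 in cytokinesis, rose by 0.54, or by 0.17 with its neighbours on chromosome 3 subtracted. The proliferation marker MKI67, named after its values were seen, averaged 8909 ± 687 normalized counts in shLTBP1 and 10547 ± 524 in shSCR (log2 fold change -0.25, limma adjusted p = 0.00755). TOP2A and CCNB1, of the same list and likewise named afterwards, did not pass (log2 fold change 0.058 in each, limma adjusted p = 0.245 and 0.359).

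The other kinesins held the largest rises of the family. KIF26A, an atypical kinesin that lacks motor activity and in mouse restrains growth factor signalling in enteric neurons, had 71.2, 67.5 and 77.9 normalized counts in shLTBP1, against 20.6, 31.4 and 20.7 in shSCR. The shLTBP1 mean of 72.2 ± 5.29 was 2.98 times the shSCR mean of 24.2 ± 6.20 (SD, n = 3 each; log2 fold change 1.56, standard error 0.23, limma adjusted p = 0.00033). Its paralogue KIF26B, needed for kidney development in mouse, rose to 445, 385 and 347 normalized counts in shLTBP1, against 152, 182 and 272 in shSCR (log2 fold change 0.99, limma adjusted p = 0.00181). In both genes all shLTBP1 values exceeded all shSCR values, and both kept their calls with neighbours subtracted, at 1.47 and 1.04.

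KIF24, a depolymerase at the mother centriole that holds back cilium assembly, had 1754, 1706 and 1815 normalized counts in shLTBP1, against 1019.6, 1059 and 1047 in shSCR. The groups lay well apart, and the log2 fold change was 0.75 (standard error 0.05, limma adjusted p = 2.61e-06), or 0.55 with neighbours subtracted (limma adjusted p = 5.03e-05). KIF27, related to the Hedgehog regulator KIF7, had 364, 266 and 338 normalized counts in shLTBP1 and 207, 123 and 193 in shSCR, a log2 fold change of 0.91. The tested genes around it on chromosome 9 had a median of 0.53, and after subtraction KIF27 was at 0.38 and did not pass (limma adjusted p = 0.12). KIF7 itself, which works at the cilium tip, did not pass (-0.043, limma adjusted p = 0.688), nor did the axonemal KIF9 (0.17, limma adjusted p = 0.306).

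Of the other kinesins that fell, KIF21A, a motor that slows microtubule growth, had 474, 557 and 527 normalized counts in shLTBP1, against 880.1, 915 and 822 in shSCR, and the groups did not overlap. Its log2 fold change was -0.75 (standard error 0.08, limma adjusted p = 4.22e-05). KIF2A fell by 0.38 (limma adjusted p = 0.000539), to 76.9% of the shSCR mean. KIF21B fell by 0.38, a call lost without shSCR replicate 3 or shLTBP1 replicate 3 (limma adjusted p = 0.0663 and 0.0559). KIF12, of epithelia of kidney and liver, had 7.76, 17.5 and 16.6 normalized counts in shLTBP1 and 52.4, 20.5 and 37.6 in shSCR (log2 fold change -1.32, standard error 0.42, limma adjusted p = 0.0252). That call was lost without shSCR replicate 1 or 3 or shLTBP1 replicate 1 (limma adjusted p = 0.0718 to 0.102).

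**Figure D4:**
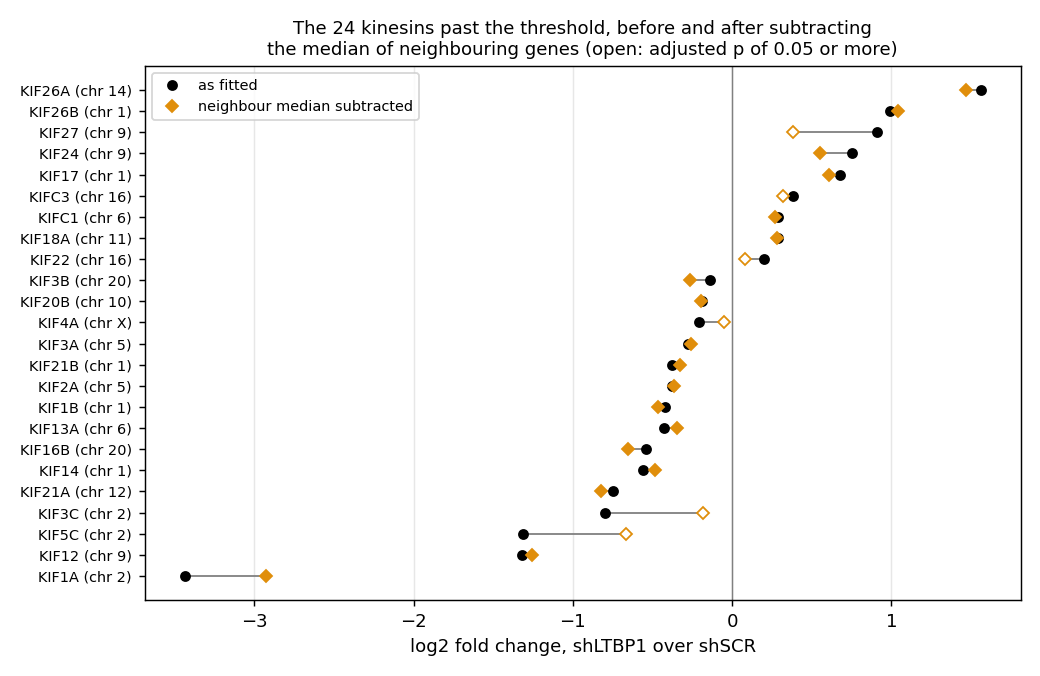
Log2 fold changes of the 24 kinesins past the threshold as fitted (circles) and with the median of 25 tested neighbours on each side subtracted (diamonds, open where the limma adjusted p was 0.05 or more), with each gene's chromosome. The chromosome 2 genes KIF3C and KIF5C and the chromosome 9 gene KIF27 move toward 0 and have open diamonds. KIF1A also moves toward 0, from -3.44 to -2.93, and keeps its call.

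With neighbours subtracted, 19 of the 36 members passed the threshold, 6 higher and 13 lower (over all genes that had neighbours, 48.8% passed, 24.1% higher and 24.7% lower). KIF22, KIF3C, KIF4A, KIFC3, KIF27 and KIF5C lost their calls, and KIFC2 gained one. Transport kinesins then had 7 lower and 1 higher, mitotic kinesins 2 and 2, and other kinesins 4 lower and 3 higher. All 3 tested kinesins of chromosome 2 were among the members lower as fitted, and of these KIF1A kept its call. KIFC2, which had not passed as fitted and is counted among the 13, was lower once the higher neighbouring genes were subtracted (-0.19, limma adjusted p = 0.0302).

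Proteins that link kinesins to cargo passed no more often than genes in general. Of 6 light chains and associated proteins, 2 passed (33.3%, against 53.1% of all tested genes). KLC3 fell to 443 ± 33.9 normalized counts in shLTBP1, against 878 ± 14.3 in shSCR (SD, n = 3 each; log2 fold change -0.99, limma adjusted p = 4.08e-06), and KLC2 rose by 0.27, or by 0.13 and not past the threshold with neighbours subtracted (limma adjusted p = 0.0821). KIFAP3, the kinesin-2 associated protein, did not pass. Of 18 cargo adaptors tested, 4 rose and 5 fell, in all 9 of 18 against that same 53.1%, with a median of 0.12. MAPK8IP2, a scaffold that binds kinesin light chains, rose by 1.03, and RHOT1, which ties mitochondria to kinesin-1, by 0.46. TRAK2, the partner of RHOT1 and a gene of chromosome 2, fell by 0.94 on the log2 scale (-0.26 with neighbours subtracted).

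Of 17 intraflagellar transport genes, the cargo trains of KIF3A and KIF3B in cilia, 6 rose and 4 fell (58.8%, close to the 53.1% of all tested genes, median 0.12). IFT80 and IFT122 rose by 0.61 and 0.45, IFT80 by 0.22 with neighbours subtracted. WDR35, on chromosome 2, and IFT57 fell, with log2 fold changes of -1.66 and -1.12 (WDR35 at -1.11 with neighbours subtracted). Of 5 Hedgehog pathway genes tested, the transcription factors GLI3 and GLI2 fell, with log2 fold changes of -1.61 and -1.18 (GLI2 at -0.59 with its chromosome 2 neighbours subtracted). SUFU rose by 0.15, a call lost without any 1 library (limma adjusted p = 0.046, and 0.0586 to 0.144).

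Of 12 tubulins, the subunits of the microtubule tracks, 8 fell and 2 rose (83.3%, against 53.1% of all tested genes, of which 26.8% were lower, median -0.18). TUBB2B and TUBB4A fell, with log2 fold changes of -1.73 and -1.71, while TUBB3 rose by 0.97 and TUBB2A by 0.22. TUBB2A and TUBB2B are close copies, so the division of their reads is uncertain. Of 15 microtubule-associated proteins tested, 7 fell and 1, STMN1, rose by 0.28 (53.3% in all, the share of all genes being 53.1%, median -0.17). DCLK1 and MAPRE2 fell (-1.81 and -1.29 on the log2 scale). Of 23 dynein and dynactin genes, the machinery of transport toward minus ends, 7 rose and 6 fell (56.5%, close to the 53.1% of all tested genes, median 0.018). DYNLRB1, a light chain, rose by 1.32 and DYNC1I1, an intermediate chain, by 1.11. DYNC1I2 and DCTN1, which are chromosome 2 genes, fell (-0.67 and -0.65 on the log2 scale). With neighbours subtracted DYNC1I2 was at -0.16, and DCTN1 was at 0.0015 and did not pass (limma adjusted p = 0.983). DYNC1H1, a heavy chain gene on chromosome 14 named after its values were seen, fell too (log2 fold change -0.63, limma adjusted p = 2.6e-06). It was at -0.71 with neighbours subtracted (limma adjusted p = 2.59e-06).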

How the data were processed

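RNA-seq of 6 MKN28 libraries was deposited by the authors as one table of normalized read counts, a non-negative signal per gene that is not whole numbers. The submitters' processing notes name the hg38 build and, in no stated order or role, RSEM 1.3.1, STAR 2.7.3a, DESeq2 and FastQC 0.10.1. Annotation, strand setting and filters: not given in the sources used here. Whole reads could not be recovered (per library, 35.6% to 37.2% of the values examined came out whole within 0.1), so no count test was run and sequenced depth is unknown. Genes with a mean of at least 10 were tested as log2(value + 1) with limma 3.58.1 in R 4.3.3 (trend, 4 residual and 5.6 prior degrees of freedom), with Benjamini-Hochberg adjustment over 12789 genes and a threshold of 0.05. The fit was tested on simulated data. It missed the recovery first required of it, and that requirement was then changed to apply to genes of higher mean. In it, known changes were poorly recovered for genes of low mean, the range of KIF5C, KIF12, KIF26A and KIF17, so a low gene that did not pass may still differ. Fold changes understate the change of low genes. Positions and transcript lengths came from GENCODE 29 (19872 of 19960 identifiers matched). Neighbour subtraction removed the median of 25 tested genes on each side. By rule the text names KIF1A, LTBP1, kinesins past the threshold with a log2 change of at least 0.5 in size, the highest member per kb of each class, chromosome 2 kinesins and, per related list, up to 2 that rose most and 2 that fell most among those past the threshold. Other kinesins are named to account for every member. For 1 cargo adaptor that the rule names, the result is not reported here. The kinesins, classes and lists were chosen with earlier results of these data known. Same-numbered libraries had correlations of deviations of -0.0093, 0.058 and -0.00074, so replicate numbers were not taken to pair libraries. The alternatives were other pseudocounts, filters and scalings (TMM, quantile), no trend, a replicate block, neighbour subtraction and each library left out.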

Additional observations from a re-analysis of the deposited data

How the results depend on the processing

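Of the 24 kinesins past the threshold, 13 kept call and direction in each of the 15 alternatives that tested them, 11 lost the call in at least 1, and 0 changed direction. With 1 library left out, 19 to 24 kinesins and 5822 to 6534 genes of the whole table passed, and KIF1A ran from -3.74 to -3.18. The transport kinesins that were higher numbered 1 with neighbours subtracted and 1 to 2 with a library left out (1 without shSCR replicate 3 or shLTBP1 replicate 1). The other kinesins that were lower numbered 2 to 4 (2 without shSCR replicate 3). The mitotic median was -0.039 with neighbours subtracted and -0.0098 to 0.020 with a library left out, and the median of the other kinesins was -0.073 with no filter. Members that changed sign had not passed. With a library left out, KIF1C ran from -0.038 to 0.050, KIF23 from -0.0057 to 0.024, KIF11 from -0.073 to 0.0062, KIF2C from -0.015 to 0.053, KIF15 from -0.084 to 0.22, KIFC2 from -0.099 to 0.0078 and KIF5B from -0.0098 to 0.013. With neighbours subtracted, KIF23 was at -0.059, KIF2C at -0.089 and KIF18B at -0.030, and with quantile normalization KIF5B was at 0.041. The causes were not tested. With the replicate number as a block, KIF1A was at -3.44 (limma adjusted p = 5.48e-07), 24 kinesins passed, and 6755 genes passed in the whole table. Sequenced depth is unknown, and low members such as KIF5C and KIF12 rest on few counts.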
